A study of Mus musculus with 21 samples.

Results

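GABA, the main inhibitory transmitter of the forebrain, is made and used by interneurons, and 9 genes of this machinery were followed here in bulk RNA from mouse cortex and hippocampus. The genes were taken from the count table by name: Gad1, Gad2 and Slc32a1 for GABA synthesis and storage, and Pvalb, Calb2, Lhx6, Erbb4, Adarb2 and Sox6 for interneuron identity. All 9 were matched among the 64361 genes of the count table, and all 9 passed the low-count filter of every comparison.

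GA-Camk2a mice carry a transgene for poly-GA, a glycine-alanine repeat protein that is translated from the expanded C9orf72 repeat of amyotrophic lateral sclerosis and frontotemporal dementia. Camk2a-Cre switches the transgene on in excitatory forebrain neurons, so interneurons are not the cells in which the driver is active. The mice were on a C57BL/6J background, and the GA-Camk2a mice came from 2 litters. By the labels, transgenic and control animals were taken at 30 to 40 weeks, when the transgenic mice reached the humane endpoint. The study's text gives 30 weeks for the GA-Camk2a mice and about 30 weeks for that endpoint. The labels call the control genotype only ctrl. The table held 21 libraries from 11 mice, with cortex of 5 control and 6 GA-Camk2a mice and hippocampus of 4 control and 6 GA-Camk2a mice, and 10 mice gave both tissues. These numbers follow the labels, and the study's text gives the control numbers of the tissues the other way round.

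In background terms, Gad1 and Gad2 encode the glutamate decarboxylases GAD67 and GAD65, which turn glutamate into GABA, and Slc32a1 encodes the vesicular transporter VGAT, which loads GABA into synaptic vesicles. Lhx6 and Sox6 are transcription factors of interneurons born in the medial ganglionic eminence, among them the cells that hold parvalbumin (Pvalb). Adarb2, a member of the RNA-editing enzyme family, marks interneurons of the caudal ganglionic eminence, Calb2 encodes calretinin, and Erbb4 is the neuregulin receptor that cortical interneurons carry.

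The libraries were made with prime-seq, a bulk method that primes at poly(A) tails, so that counts come from 3′ ends and levels are not compared between genes. Library totals ran from 1048201 to 5888102 counts (median 1975173). Levels are given as CPM, counts relative to the library total after scaling each library by TMM, a factor that balances the bulk of the genes between libraries. The row for GFP, which the transgene fuses to poly-GA, held at most 4 counts in any library and was above 0 in 7 of 12 GA-Camk2a and 2 of 9 control libraries, so it was too sparse to check the labels. The cortex libraries held markers of striatal projection neurons, whose 10 genes summed to 1033 to 1669 CPM in control cortex and to 285 to 328 CPM in control hippocampus. Choroid plexus and ependymal markers (7 genes) summed to 1778 to 54420 CPM among the hippocampal libraries. Both genotypes had libraries at the low end (1808 CPM in a control, 1778 CPM in a GA-Camk2a mouse), and the 3 highest sums, 45570 to 54420 CPM, were all of GA-Camk2a mice, above the highest control at 33060 CPM. Among the cortex libraries the GA-Camk2a mouse 34 stood apart, at 8257 CPM against 1707 to 2762 CPM in the other 10, and it was also the lowest transgenic cortex for Gad2 (81.8 CPM). Without it the cortical log2 fold change of Gad2 was 0.13 (edgeR, adjusted p = 0.564), and the part of that tissue in the Gad2 level was not tested further. In bulk tissue, fewer cells of a type and less RNA per cell cannot be told apart.

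The stretches before the start sites of the 3 genes of GABA synthesis and storage are shown because these genes share one pathway, and their levels are the first result below. The sequences are those of RefSeq on GRCm38.p6, each holding the 250 bases before the start on the plus strand, 5′ to 3′. The capitals mark matches to a GC box (GGGCGG) or a TATA box (TATAAA) on either strand. Gad1 (ENSMUSG00000070880) lies at chr2:70561879-70562128, Gad2 (ENSMUSG00000026787) at chr2:22622077-22622326 and Slc32a1 (ENSMUSG00000037771) at chr2:158610508-158610757.
Gad1: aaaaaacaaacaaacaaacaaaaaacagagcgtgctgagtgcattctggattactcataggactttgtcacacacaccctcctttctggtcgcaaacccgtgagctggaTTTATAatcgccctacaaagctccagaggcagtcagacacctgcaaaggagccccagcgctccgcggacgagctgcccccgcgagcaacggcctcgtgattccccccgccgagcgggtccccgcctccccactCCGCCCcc
Gad2: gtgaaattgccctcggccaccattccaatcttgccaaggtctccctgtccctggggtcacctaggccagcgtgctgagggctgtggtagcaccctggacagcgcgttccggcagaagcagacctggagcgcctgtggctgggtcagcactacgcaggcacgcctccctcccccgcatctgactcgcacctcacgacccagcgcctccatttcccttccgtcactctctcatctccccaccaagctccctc
Slc32a1: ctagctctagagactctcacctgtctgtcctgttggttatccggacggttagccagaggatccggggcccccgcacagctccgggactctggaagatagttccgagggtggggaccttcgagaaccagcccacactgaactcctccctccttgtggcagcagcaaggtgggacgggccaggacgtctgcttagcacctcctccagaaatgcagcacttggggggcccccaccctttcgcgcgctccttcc
The Gad1 stretch held 1 GC box and 1 TATA box, both on the reverse strand and without overlap, and the Gad2 and Slc32a1 stretches held neither. Among 32851 mouse promoters of the same length, 32.7% held the GC box letters and 12.4% the TATA box letters. The homeodomain core TAATTA (4.84% of promoters) and the E-box CACGTG (6.02%) were in none of the 3. A match is a description of letters and no evidence of binding.

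The first question was whether the GABA and interneuron genes differed with the transgene in hippocampus. Gad2 was 1.32-fold higher in GA-Camk2a than in control hippocampus, and it was the only one of the 9 genes past the threshold there (edgeR quasi-likelihood test, Benjamini-Hochberg adjusted p of 0.05 over 14884 genes). This 1 of 9 stands beside 10.9% of all genes tested. Of the 9 estimates, 8 were positive, with a median log2 fold change of 0.34 against 0.016 over all genes. An unadjusted p under 0.05 was reached by 7 of the 9, Calb2 with its negative estimate among them, and by 3679 of all 14884 genes. The 9 were chosen with earlier results of these data known, so their signs, median and counts do not test the set.

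Gad2 was at 74.9, 77.2, 84.1 and 85.01 CPM in the 4 control hippocampi. In the 6 GA-Camk2a hippocampi it was at 86.9 CPM in the lowest, 108 CPM at the median and 130.4 CPM in the highest. All transgenic libraries lay above all controls, although the lowest of them (mouse 30) exceeded the highest control by a small step. The log2 fold change was 0.40 ± 0.098 (SE, n = 6 and 4, 95% interval 0.19 to 0.61, edgeR adjusted p = 0.015). Groups without overlap were seen for 10.4% of all genes tested in hippocampus, and for 1 of the 9. The call was lost without control mouse 20 (0.38, adjusted p = 0.0666) or control mouse 31 (0.34, adjusted p = 0.0834). The 3 transgenic hippocampi with the highest choroid plexus marker sums, those of mice 16, 30 and 35, were also the 3 lowest for Gad2, at 94.5, 86.9 and 106 CPM, and the part of that tissue in the Gad2 level was not tested. Within the batches of the labels the estimate was 0.26 in batch 1 (adjusted p = 0.52, 2 controls and 3 transgenic libraries) and 0.53 in batch 2 (adjusted p = 0.0342, 2 and 3).

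Gad1 was at 155, 158, 164 and 174 CPM in the control hippocampi and between 174 and 266 CPM in the GA-Camk2a hippocampi (median 200.3). Of the 6 transgenic libraries, 5 lay above every control, and mouse 16 lay just inside the control range. Its log2 fold change of 0.34 ± 0.10 (SE) was just short of the threshold (edgeR adjusted p = 0.0508). It passed in 8 of the 21 alternative analyses, DESeq2 among them (0.33, adjusted p = 0.0389), so its side of the threshold depended on the settings while its sign did not.

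Slc32a1 was at 24.1, 30.8, 33.5 and 36.6 CPM in control hippocampus and at 33.7 to 42.0 CPM (median 37.5) in GA-Camk2a hippocampus. The groups overlapped, with 3 of the 6 transgenic libraries within the control range. The estimate was 0.28 ± 0.12 on the log2 scale (SE, edgeR adjusted p = 0.166).

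**Figure D1:**
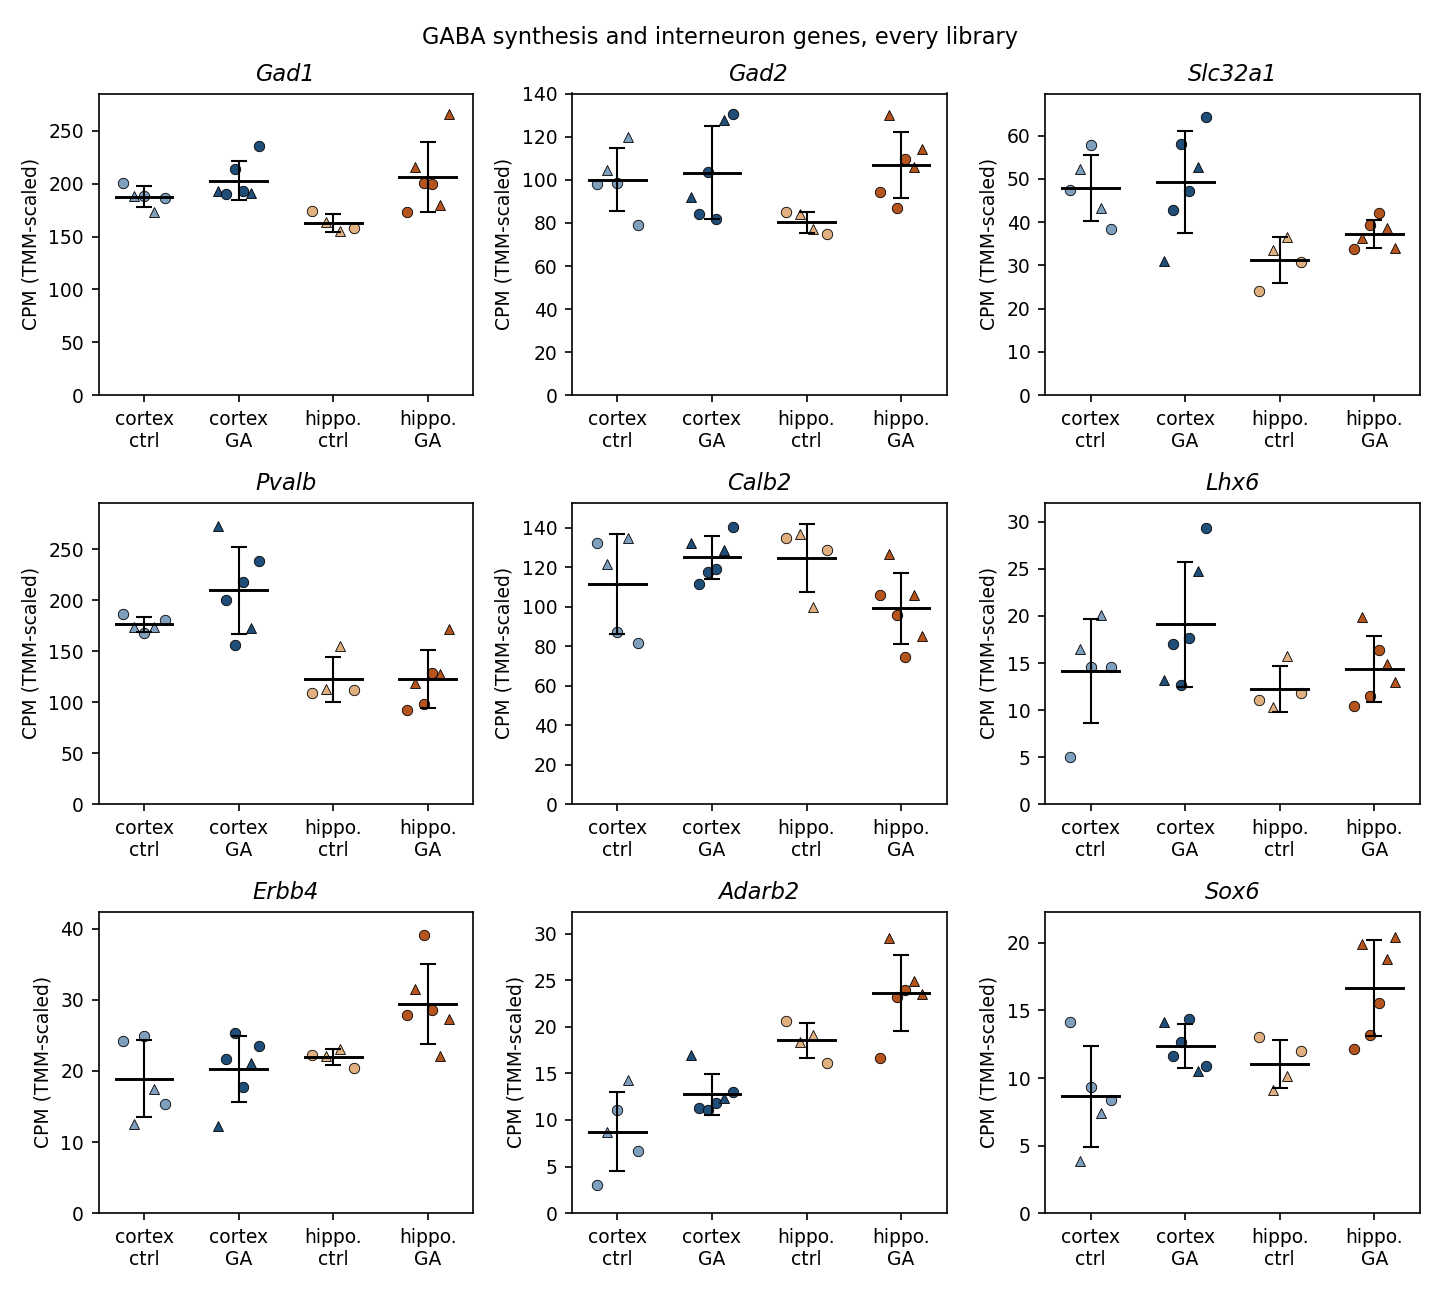
Levels of the 9 genes in every library, as TMM-scaled CPM on linear axes that start at 0. Circles are batch 1, triangles batch 2, the thick lines are group means and the bars 1 SD (n = 5, 6, 4 and 6 libraries); Gad2 shows 4 control hippocampi at 74.9 to 85.01 CPM below 6 transgenic hippocampi at 86.9 to 130.4 CPM.

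None of the 6 identity genes passed the threshold in hippocampus. Erbb4 (ENSMUSG00000062209) was at 20.4, 22.1, 22.2 and 23.1 CPM in controls and at 22.1 to 39.0 CPM (median 28.2) in GA-Camk2a mice, with 5 of 6 transgenic libraries above every control. Its log2 estimate was 0.44 ± 0.14 (SE, edgeR adjusted p = 0.0585). Erbb4 passed in 3 alternative analyses, so its side of the threshold depended on the settings. Outside the analyses with 1 library left out, the estimate ran from 0.14 to 0.57. Sox6 (ENSMUSG00000051910) was at 9.10, 10.1, 12 and 13.01 CPM in controls and at 12.2 to 20.4 CPM (median 17.2) in GA-Camk2a mice, where mouse 16 alone lay inside the control range.

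The Sox6 estimate was 0.55 ± 0.19 (SE, edgeR adjusted p = 0.0727), and by batch it was 0.11 in batch 1 (adjusted p = 0.894) and 1.07 in batch 2 (adjusted p = 0.0192). Sox6 is also made by oligodendrocyte precursors, and of 7 precursor markers none passed the threshold in either tissue (edgeR; 0 of 7 had an unadjusted p under 0.05 in hippocampus and 1 of 7 in cortex). Their summed level was 78.0 to 96.4 CPM in control and 84.4 to 105.9 CPM in GA-Camk2a hippocampus, and their part in the Sox6 level was not tested.

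Adarb2 (ENSMUSG00000052551) was at 16.1, 18.4, 19.2 and 20.6 CPM in control hippocampus and at 16.7 to 29.5 CPM (median 23.7) in GA-Camk2a hippocampus. Here too, 5 of 6 transgenic libraries lay above the controls and mouse 16 did not (0.34 ± 0.14, SE, edgeR adjusted p = 0.144). Lhx6 (ENSMUSG00000026890) overlapped more widely, at 10.3, 11.1, 11.8 and 15.8 CPM in controls and 10.4 to 19.9 CPM (median 14.0) in GA-Camk2a mice, with an estimate of 0.25 ± 0.19 (SE, edgeR adjusted p = 0.458).

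Pvalb (ENSMUSG00000005716) was at 109, 112, 113 and 155 CPM in control hippocampus and at 92.8 to 172 CPM (median 123) in GA-Camk2a hippocampus. The groups had nearly the same mean, and the log2 estimate of 0.01 had a 95% interval from −0.26 to 0.27 (edgeR adjusted p = 0.98), so a change of up to 1.21-fold in either direction remained within the error. The high control (mouse 31) and the highest GA-Camk2a library (mouse 41) had the lowest choroid plexus marker sums of their groups, 1808 and 1778 CPM, whereas mouse 34, with a sum of 1897 CPM, had Pvalb at 128 CPM, as did mouse 35 with a sum of 45570 CPM. The part of that tissue in the Pvalb level was not tested.

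Calb2 (ENSMUSG00000003657) was the one gene with a negative estimate in hippocampus. It was at 99.7, 129, 135 and 137 CPM in controls and at 74.8 to 127 CPM (median 101) in GA-Camk2a mice, with 3 transgenic libraries below every control and 3 controls above every transgenic library. The estimate of −0.35 ± 0.13 (SE) did not pass the threshold (edgeR adjusted p = 0.109). It did pass without control mouse 31, the lowest control (−0.47, adjusted p = 0.0484), and with no low-count filter (−0.42, adjusted p = 0.00633). Calb2 is made in mossy cells of the mouse dentate gyrus as well as in interneurons. A joint list of 8 granule and mossy cell markers summed to 337 to 399.7 CPM in control and 344 to 423 CPM in GA-Camk2a hippocampus. Of its genes, 0 of 6 tested passed the threshold (edgeR, 0 at an unadjusted p under 0.05). Most of that sum was Calb1, also counted below as an interneuron subtype gene (mean 231 of 372 CPM in control hippocampus). The list summed to 298 to 388 CPM in control cortex, so it does not single out granule or mossy cells. The part of mossy cells in the Calb2 level was not tested.

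The same question was asked in cortex. None of the 9 genes passed the threshold in cortex, beside 12.5% of 13058 genes tested (edgeR; 2 of 9, Pvalb and Sox6, and 3389 of all genes had an unadjusted p under 0.05), and none was called by DESeq2, limma-voom or any other alternative run. All 9 estimates were positive, with a median of 0.22 against −0.0049 over all genes, which does not test the set for the reason given for hippocampus. The signs for Gad2, Slc32a1 and Erbb4 were not stable: Slc32a1 was at −0.04 after thinning to equal depth and −0.12 in batch 2 alone, Gad2 was at −0.03 in batch 2 alone, and Erbb4 was at −0.05 without control mouse 38. No gene of the 9 had groups without overlap, which 6.82% of all genes had.

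Gad1 was at 173, 186, 188, 189 and 201 CPM in control cortex and at 190.2 to 236 CPM (median 193) in GA-Camk2a cortex. Only mice 30 and 41 exceeded the control range. The estimate was 0.11 ± 0.087 (SE), with a 95% interval from −0.070 to 0.29 (edgeR adjusted p = 0.459).

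Gad2 was at 79.2, 98.0, 98.4, 104 and 120.0 CPM in control cortex and at 81.8 to 131 CPM (median 97.9) in GA-Camk2a cortex. Slc32a1 was at 38.3, 43.4, 47.5, 52.2 and 57.9 CPM in controls and at 31.04 to 64.4 CPM (median 49.9) in GA-Camk2a mice. For both genes the transgenic libraries spanned the whole control range or nearly so. The estimates were 0.08 ± 0.13 for Gad2 (edgeR adjusted p = 0.735) and 0.07 ± 0.15 for Slc32a1 (adjusted p = 0.827).

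Pvalb was tight in control cortex, at 168, 173, 174, 180.4 and 187 CPM, and wide in GA-Camk2a cortex, at 156 to 273 CPM (median 209). Of the 6 transgenic libraries, 4 lay above and 1 below the controls. The estimate of 0.25 ± 0.12 (SE) had an adjusted p of 0.188 in edgeR. Calb2 was at 81.7, 87.3, 122, 132 and 135 CPM in control and at 112 to 140.4 CPM (median 124) in GA-Camk2a cortex, with 1 transgenic library above the control range (0.22 ± 0.12, SE, edgeR adjusted p = 0.25).

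The 4 low-count genes had wider errors in cortex. Lhx6 was at 5.05, 14.6, 14.6, 16.4 and 20.1 CPM in control and 12.6 to 29.3 CPM (median 17.4) in GA-Camk2a cortex, and Erbb4 at 12.6, 15.4, 17.4, 24.3 and 24.9 CPM in control and 12.2 to 25.3 CPM (median 21.4) in GA-Camk2a cortex. Adarb2 was at 3.03, 6.71, 8.70, 11.1 and 14.3 CPM against 11.1 to 16.9 CPM (median 12.1), and Sox6 at 3.87, 7.40, 8.39, 9.36 and 14.2 CPM against 10.54 to 14.4 CPM (median 12.1). All 4 overlapped between genotypes, yet for Adarb2 and Sox6 each, 4 of 5 controls lay below every transgenic library. Those 2 had the largest estimates of the 9, 0.47 ± 0.23 for Adarb2 (edgeR adjusted p = 0.193) and 0.49 ± 0.22 for Sox6 (adjusted p = 0.154). Counts behind them were as low as 3 for Adarb2 and 4 for Sox6 in a control library. The estimates for Lhx6 and Erbb4 were 0.44 ± 0.24 (adjusted p = 0.254) and 0.11 ± 0.18 (adjusted p = 0.757).

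**Figure D2:**
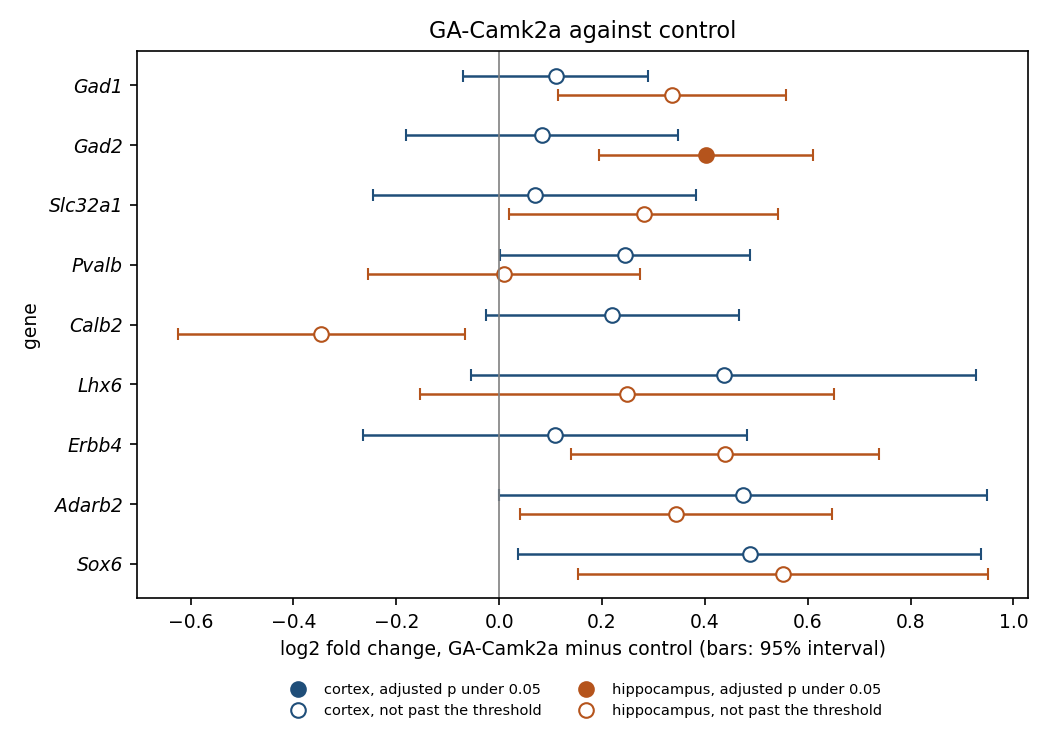
Log2 fold change of GA-Camk2a over control for each of the 9 genes, cortex in blue and hippocampus in orange, with 95% intervals from the edgeR fit. The only filled point, an adjusted p under 0.05, is Gad2 in hippocampus (0.40), and the only estimate below 0 is Calb2 in hippocampus (−0.35).

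Whether the transgene acted differently on these genes in the 2 tissues was tested directly, as the hippocampal minus the cortical log2 fold change over all 21 libraries. No gene of the 9 passed (edgeR; 0.414% of 14751 genes did), with 1 of 9 at an unadjusted p under 0.05, and DESeq2 called none of the 9 either. That gene was Calb2, whose difference was −0.56 ± 0.19 (SE, 95% interval −0.95 to −0.18, edgeR adjusted p = 0.248). For Gad2 the difference was 0.31 ± 0.17 (95% interval −0.035 to 0.66, adjusted p = 0.568). The hippocampal call for Gad2 is therefore not shown to be particular to hippocampus. For Gad1 the interval ran from −0.064 to 0.50 (adjusted p = 0.634).

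The GABA genes were also set against Slc17a7, which encodes the vesicular glutamate transporter VGLUT1 of excitatory neurons, as a ratio of counts in the same library that no scaling between libraries can move. In control hippocampus there were 0.380, 0.403, 0.427 and 0.465 counts of Gad1 per count of Slc17a7, and in GA-Camk2a hippocampus 0.752 to 1.51 (median 0.861). For Gad2 the ratio was 0.180 to 0.239 against 0.358 to 0.684, and for Slc32a1 0.0591 to 0.0952 against 0.155 to 0.193. None of the 3 ratios overlapped between genotypes in hippocampus, but 63.8% of the genes tested also stood higher per count of Slc17a7 there without overlap, so the separation is no result about the GABA genes. In cortex all 3 overlapped, beside 4.01% of genes that were higher without overlap, and Gad1 ran from 0.433 to 0.605 in controls and from 0.479 to 0.874 in GA-Camk2a mice. These ratios were given no test.

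Most of the hippocampal shift in the ratio lay in its denominator. Slc17a7 fell in GA-Camk2a hippocampus, from 391 ± 28.7 to 216 ± 33.6 CPM (mean ± SD, n = 4 and 6, log2 fold change −0.86 ± 0.081, SE, edgeR adjusted p = 1.56e-05), and in cortex its estimate was −0.27 ± 0.10 (adjusted p = 0.0832). Of 9 excitatory neuron markers 6 fell in each tissue, beside 6.16% of all genes tested in cortex and 5.95% in hippocampus. The summed level of the 9 was 2232 to 2757 CPM in control and 1174 to 1512 CPM in GA-Camk2a hippocampus. In cortex the sums were 2183 to 2422 CPM and 1379 to 1803 CPM. CPM is a share of the library, and the part of the excitatory transcripts in the levels of the 9 genes was not tested.

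**Figure D3:**
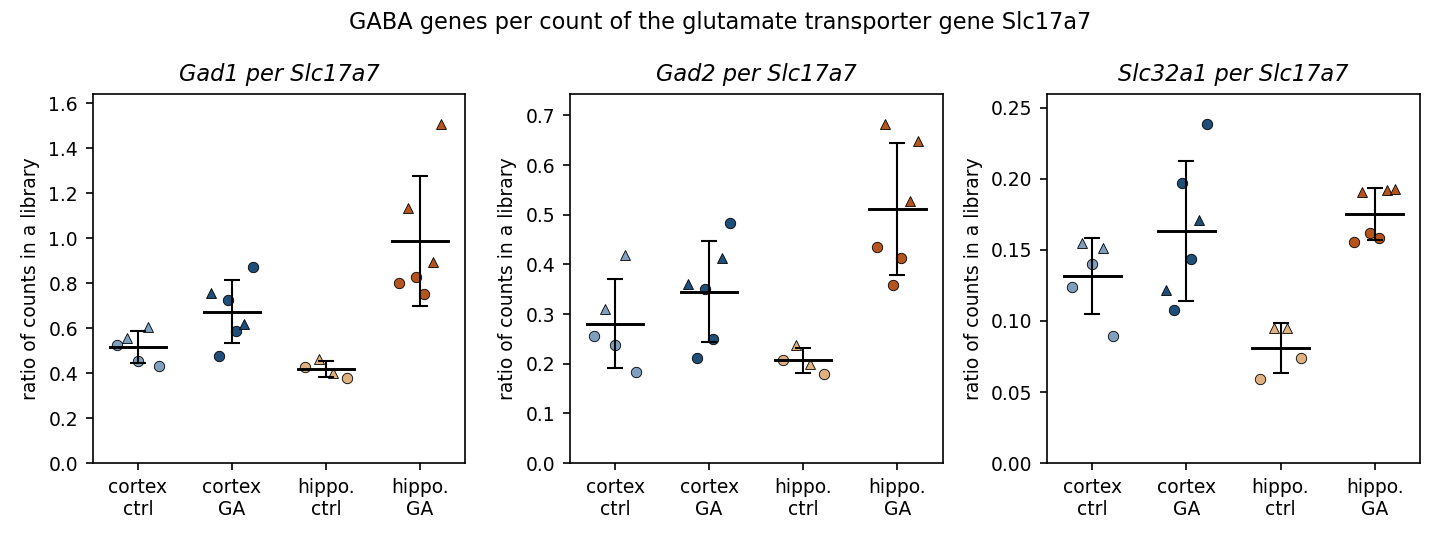
Counts of Gad1, Gad2 and Slc32a1 per count of Slc17a7 in every library, on linear axes from 0, with circles for batch 1, triangles for batch 2, and mean ± 1 SD. In hippocampus every transgenic library is above every control for all 3 ratios (for Gad1, 0.752 to 1.51 against 0.380 to 0.465), as for 63.8% of the genes tested, and in cortex the genotypes overlap.

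Ratios to Gad1 were taken as well. Gad2 per Gad1 was 0.473 to 0.513 in control and 0.430 to 0.603 in GA-Camk2a hippocampus, with overlap, and Slc32a1 per Gad1 was 0.138 to 0.236 and 0.128 to 0.215. Calb2 per Gad1 was at 0.644 to 0.836 in control and 0.321 to 0.610 in GA-Camk2a hippocampus, without overlap, as 18.1% of the genes tested were lower per count of Gad1 there. Pvalb per Gad1 was 0.625 to 1.00 in controls and 0.490 to 0.709 in transgenic hippocampi.

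A second comparison set hippocampus against cortex. In control mice Adarb2 was higher in hippocampus and Pvalb and Slc32a1 were lower, 3 of the 9 genes called beside 16.5% of 14435 genes (edgeR, 8.9% higher and 7.62% lower). The same 3 had tissues without overlap, beside 14.5% of all genes. Adarb2 was at 16.1 to 20.6 CPM in the 4 hippocampi and 3.03 to 14.3 CPM in the 5 cortices, a log2 difference of 0.97 ± 0.23 (SE, adjusted p = 0.00768) whose call was lost after thinning to equal depth (0.87, adjusted p = 0.0613). Pvalb was at 109 to 155 CPM in hippocampus and 168 to 187 CPM in cortex (−0.56 ± 0.11, adjusted p = 0.00178). Slc32a1 was at 24.1 to 36.6 CPM in hippocampus and 38.3 to 57.9 CPM in cortex (−0.64 ± 0.15, adjusted p = 0.00615).

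Gad2 was 0.32 ± 0.11 lower in hippocampus on the log2 scale, short of the threshold (edgeR adjusted p = 0.0554). With the mouse as a block, which compares the tissues within each animal, the value was −0.40 and passed (adjusted p = 0.0197), so the 3 genes called became 4. Gad1 was −0.20 ± 0.090 (adjusted p = 0.151). The striatal markers stood far lower in hippocampus, 10 of 10 past the threshold with a median of −2.82, and striatal projection neurons also use Gad1, Gad2 and Slc32a1. Their part in the tissue difference was not tested.

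In GA-Camk2a mice 5 of the 9 genes differed between tissues, beside 33.3% of 13098 genes (edgeR, 16.9% higher and 16.3% lower). Adarb2 (0.84 ± 0.14, adjusted p = 0.000311) and Erbb4 (0.56 ± 0.15, adjusted p = 0.0087) were higher in hippocampus. Pvalb (−0.83 ± 0.14, adjusted p = 0.000257), Calb2 (−0.36 ± 0.11, adjusted p = 0.0159) and Slc32a1 (−0.39 ± 0.14, adjusted p = 0.035) were lower. No gene of the 9 separated the tissues without overlap in these mice, where 13.5% of all genes did. The Slc32a1 call was lost in 7 of 12 analyses that left out 1 library, with adjusted p from 0.0507 to 0.126 in those 7, and in 5 of 9 other settings, with adjusted p up to 0.278. The Calb2 call was lost without the hippocampus of mouse 34 (−0.27, adjusted p = 0.0563) and with total counts (−0.27, adjusted p = 0.0597), and the Erbb4 call after thinning (0.39, adjusted p = 0.118).

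The enzymes' genes were level between tissues in the transgenic mice, with estimates of 0.0055 for Gad1 (95% interval −0.21 to 0.22) and −0.0052 for Gad2 (−0.26 to 0.25). Their adjusted p were 0.976 and 0.981. Ordered by mean level, Gad2 stood at 107 CPM in GA-Camk2a hippocampus, 103 in GA-Camk2a cortex, 100 in control cortex and 80.3 in control hippocampus. Neighbours in this order overlapped in their libraries, and only the transgenic and the control hippocampus were apart.

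**Figure D4:**
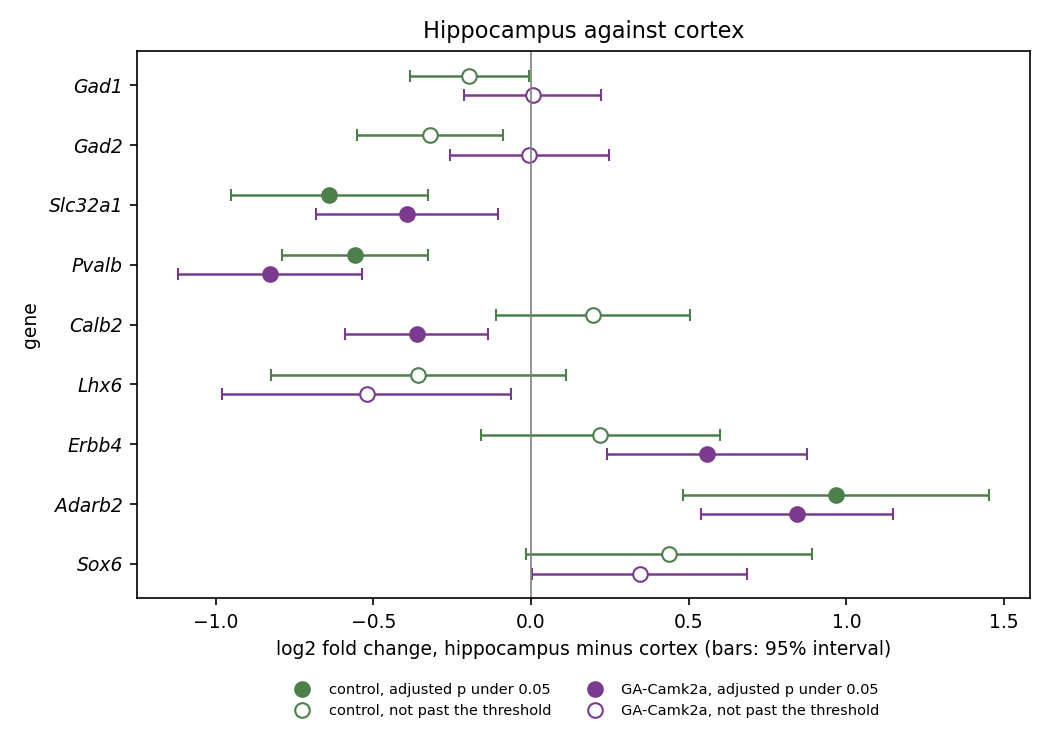
Log2 fold change of hippocampus over cortex for each of the 9 genes in control mice (green) and GA-Camk2a mice (purple), with 95% intervals and filled points for an adjusted p under 0.05. Adarb2 lies above 0 in both genotypes (0.97 and 0.84) and Pvalb below 0 in both (−0.56 and −0.83).

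Other genes of the GABA system were counted from lists. Of 13 genes for GABA uptake, breakdown, precursor supply, receptors and postsynaptic scaffolds, 12 were tested in each tissue. In each tissue 1 rose and 3 fell, beside 6.35% higher and 6.16% lower over all genes in cortex and 4.97% and 5.95% in hippocampus, and the list medians were −0.14 and −0.12.

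Gabbr2, a GABA-B receptor subunit that excitatory neurons also use, fell in hippocampus from 94.8 ± 7.82 to 66.3 ± 7.36 CPM (−0.50 ± 0.095, edgeR adjusted p = 0.00292), without overlap between the genotypes. In cortex it fell by 0.36 on the log2 scale (adjusted p = 0.0474), and there the genotypes overlapped.

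Of 13 interneuron transcription factors, 11 were tested in cortex and 12 in hippocampus, and 2 rose and none fell in each. Over all genes tested, 6.35% rose in cortex and 4.97% in hippocampus. Maf rose in hippocampus (0.84 ± 0.15, edgeR adjusted p = 0.00179) and Npas1 in cortex (0.97 ± 0.30, adjusted p = 0.0366). Maf is also made by microglia and macrophages, and 6 of 8 microglial markers rose in each tissue. The microglial sums were 299 to 349.7 against 771 to 1150 CPM in cortex and 277 to 314 against 483 to 732 CPM in hippocampus, and their part in Maf was not tested.

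Of 33 interneuron subtype genes, 30 were tested in each tissue. In cortex 10 rose and 3 fell (median 0.31), beside 6.35% higher and 6.16% lower over all genes. In hippocampus 3 rose and 4 fell (median 0.13), beside 4.97% higher and 5.95% lower. Vip, the peptide of a class of interneurons that mostly contact other interneurons, had the lowest adjusted p in cortex, where it rose from 35.2 ± 6.04 to 85.9 ± 27.5 CPM (1.31 ± 0.18, edgeR adjusted p = 3.69e-05). Hippocampal Vip went from 15.0 ± 2.19 to 34.3 ± 9.32 CPM (1.16 ± 0.18, adjusted p = 0.000775), and the genotypes did not overlap in either tissue.

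Cck, a peptide gene of basket cells that many pyramidal cells also use, fell in hippocampus from 528 ± 49.0 to 272 ± 40.5 CPM (−0.96 ± 0.11, edgeR adjusted p = 5.35e-05). Lamp5, of neurogliaform cells and also of pyramidal and striatal neurons, fell in cortex (−0.93 ± 0.13, adjusted p = 5.48e-05), and the peptide gene Tac2 rose there (0.84 ± 0.15, adjusted p = 0.000819). Igf1, which microglia make too, rose in hippocampus (1.06 ± 0.22, adjusted p = 0.00492).

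Sst, the somatostatin gene, did not pass in either tissue, with estimates of 0.24 ± 0.11 in cortex (edgeR adjusted p = 0.159) and −0.28 ± 0.11 in hippocampus (adjusted p = 0.127). Npy, the neuropeptide Y gene, rose in cortex (0.44 ± 0.11, adjusted p = 0.0116) and stood at −0.22 ± 0.12 in hippocampus (adjusted p = 0.277). Their differences between the tissues did not pass (adjusted p = 0.22 and 0.0997). Of 6 neuregulin and ErbB genes that act with Erbb4, 2 were tested in cortex and 4 in hippocampus, and none passed (edgeR; 1 and 2 at an unadjusted p under 0.05).

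In cortex the striatal markers fell in 10 of 10 genes, with sums of 1033 to 1669 CPM in controls and 334 to 695 CPM in GA-Camk2a mice, while in hippocampus 1 of 6 tested fell. Since striatal neurons use the genes of GABA synthesis, these values stand beside the cortical levels of Gad1, Gad2 and Slc32a1, and their part in those levels was not tested. Pan-neuronal markers fell in 5 of 12 genes in cortex and 9 of 12 in hippocampus. Over all genes tested, 6.16% fell in cortex and 5.95% in hippocampus.

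**Figure D5:**
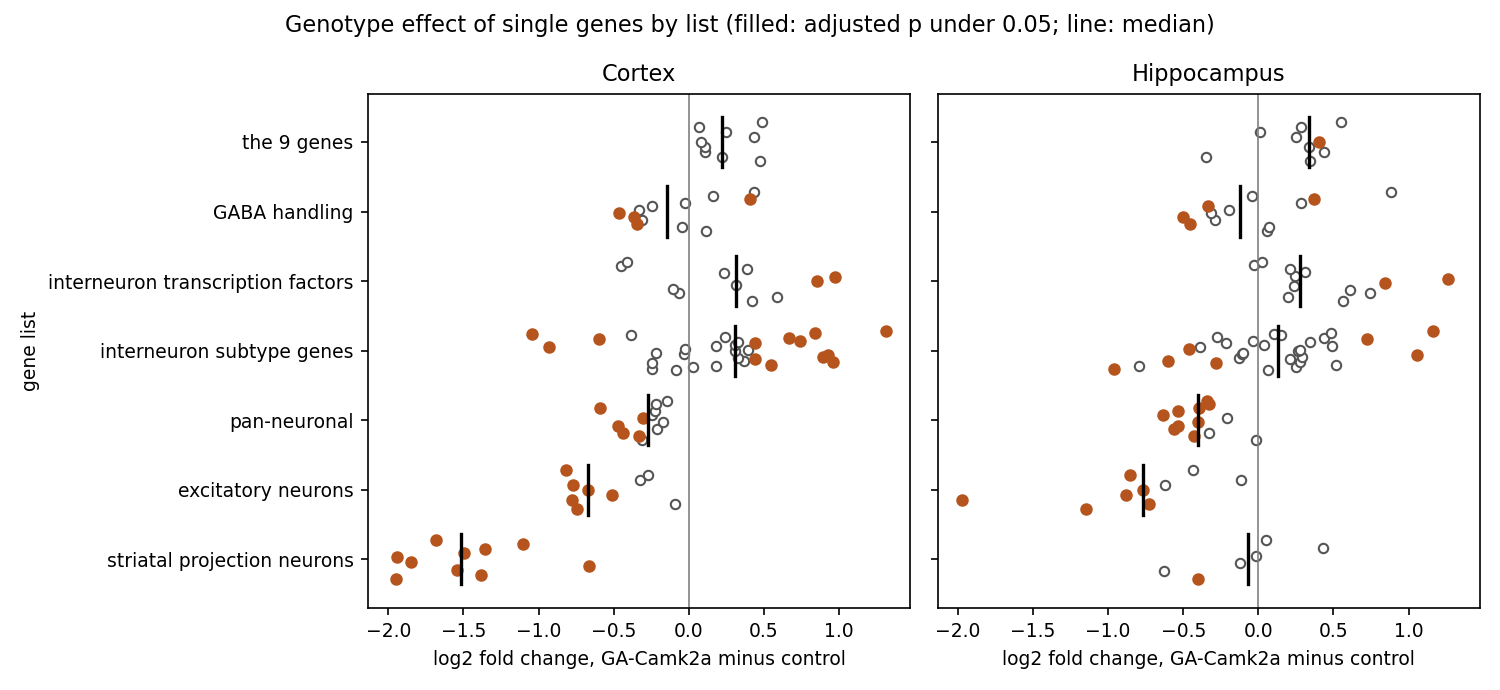
Log2 fold change of GA-Camk2a over control for each tested gene of 7 lists, 1 point a gene, in cortex (left) and hippocampus (right), with filled points for an adjusted p under 0.05 and a black line at the list median. The medians of the 9 genes (0.22 and 0.34) lie above 0, and those of the excitatory neuron list (−0.67 and −0.77) below it. The genes were chosen with earlier results of these data known, so the medians are descriptions.

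Variation between libraries within a group was compared across genes after removing the mean of each tissue and genotype and the batch (21 libraries, 15 residual degrees of freedom, shared depth and scaling). Among the 36 pairs of the 9 genes the correlation ran from −0.489 for Slc32a1 and Sox6 to 0.648 for Adarb2 and Lhx6, with a median of 0.054. Gad1 and Gad2 were at 0.490, Gad2 and Slc32a1 at 0.510, and Gad1 and Slc32a1 at 0.049. Of 11130 genes, those closest to Gad1 were Hace1 (0.785), Timm21 (0.776) and Arxes2 (0.769), and those closest to Gad2 were Scrn1 (0.793), Mettl16 (0.777) and Csmd2 (0.776). For Slc32a1 the closest 2 were Rhot2 (0.833) and Taz (0.826), and for Pvalb they were Plekhb1 (0.815), Igfbp5 (0.799) and Gpr89 (0.787). The 9 genes were left out of this ranking, so none of them could be among the closest genes. These are descriptions with no p.

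Overlapping genes could share counts if strand was not used in counting, which is not given in the sources used here. Gad1os, antisense to Gad1, held 78 counts in all libraries against 9481 for Gad1, and the largest partner of Adarb2 held 276 against 823. No annotated gene overlapped Pvalb or Calb2.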

How the data were processed

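Bulk prime-seq counts of 21 libraries from cortex and hippocampus were used. The authors deposited raw counts per Ensembl gene, not normalized, and the labels name FastQC 0.11.8, cutadapt 1.12, STAR and DESeq2 1.44 with build mm39; the study's software list also names zUMIs, a pipeline that can count UMIs, while whether the deposited values are UMIs or reads, strand use and the annotation release are not given in the sources used here. Groups came from the labels. Symbols were taken from GENCODE names by gene identifier and covered 43308 rows with 96.1% of counts. The 9 genes and the lists were chosen with earlier results of these data known.

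Counts were tested in edgeR 4.0.16 (R 4.3.3) with TMM, filterByExpr at a minimum count of 10, a quasi-likelihood test with a batch term, and Benjamini-Hochberg adjustment over all genes tested at 0.05. DESeq2 (1.42.0, here), limma-voom (limma 3.58.1) with quality weights, upper quartile or no factors, no filter, a filter at 30, thinning to 1048201 counts, no batch term, single batches, left-out libraries and a mouse block were alternatives. The scripts were tested on simulated data. Named genes were the 9, Sst, Vip, Npy, and at most 3 called genes per list and tissue by adjusted p. Promoters were RefSeq's, and 8 of the 9 genes had one. Each mouse number marks 1 animal, so the numbers pair the tissues; residuals of the same mouse correlated at −0.001 to 0.115 over 11582 genes. Depth limits low genes: Adarb2 and Sox6 had as few as 3 and 4 counts in a library. A few genes that the naming rule picks are not reported here.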

Additional observations from a re-analysis of the deposited data

Results flagged for a closer look

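In each of the 36 sets of 4 to 6 libraries (9 genes in 4 groups) the most extreme library was compared with the rest by Dixon's ratio of its gap to the range, which chance alone passes in about 5% of sets, and 2 passed. Pvalb in control hippocampus was at 155 CPM in mouse 31, with the next library at 113 CPM (ratio 0.902). Adarb2 in GA-Camk2a cortex was at 16.9 CPM in mouse 16, with the next library at 13.03 CPM (ratio 0.671).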

How the results depend on the processing

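Among the 9 genes, no called estimate changed sign in any alternative. The other named genes were not run under the alternatives. In cortex, the 1634 genes called became 1050 after thinning, 879 in batch 1 and 230 in batch 2 alone, and 1040 (without control mouse 31) to 1526 with 1 library left out, and none of the 9 was called in any of them. In hippocampus, the 1625 genes called became 949 after thinning, 115 in batch 1, 681 in batch 2, and 1038 (without control mouse 31; 1082 without control mouse 20) to 1830 with 1 library left out. The 1 gene of the 9 called higher there became 2 with DESeq2, DESeq2 without batch, upper quartile factors or batch 2 alone, 3 with total counts, limma-voom or a filter at 30, and 0 with no filter or batch 1 alone. Leaving out 1 library gave 0 (without control mouse 20 or 31) to 3 (without GA-Camk2a mouse 35; 2 without GA-Camk2a mouse 16), and for genes called lower 0 to 1, where no filter also gave 1. Without a filter Gad2 was 0.33 (adjusted p = 0.112). For the difference between tissues the 61 genes became 127 with DESeq2, 159 with no filter, 25 after thinning, 33 without batch and 22 (without the hippocampus of control mouse 31) to 66 with 1 library left out, and none of the 9 was called. For hippocampus against cortex, the 2385 genes in controls became 1408 after thinning, with 0 in place of 1 of the 9 called higher (Adarb2 0.87, adjusted p = 0.0613), and 1580 (without the cortex of mouse 38) to 3170 with 1 library left out. The 4359 genes in GA-Camk2a mice became 2866 after thinning, with 1 in place of 2 of the 9 called higher, and total counts left 1 of 3 called lower. The mouse block (replicate pairing) gave 63 genes for the difference between tissues, 1961 in controls and 4318 in GA-Camk2a mice, and changed no call among the 9 other than Gad2 in controls. The cause of these shifts was not tested, except that single batches and left-out libraries hold fewer samples and thinning fewer counts. No scaling moved the median of all genes by over 0.1. Depth limits Adarb2, Sox6, Lhx6 and Erbb4 most.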
